A study of Homo sapiens with 4 samples.

Results

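The mature miRNAs examined here were the main arms of 3 genomic clusters: hsa-miR-221-3p and hsa-miR-222-3p from the miR-221/miR-222 cluster, and hsa-miR-23a-3p, hsa-miR-23b-3p, hsa-miR-27a-3p, hsa-miR-27b-3p and hsa-miR-24-3p from the paired miR-23/27/24 clusters. They were chosen by name and not by level, though with earlier results of these data known, and were 7 of the 2588 miRNA names in the count table. The material was RNA of extracellular vesicles (EVs) released by PC3, an androgen-independent human prostate cancer (PCa) line established from a bone metastasis. Cells were grown in DMEM with bovine serum, and vesicles were collected over medium with exosome-free serum and isolated with the exoEasy membrane kit and qEV columns. Small RNA and stranded total RNA libraries were each sequenced from 2 biological replicates, and the question was which RNAs these EVs carry. No treatment was given. The series holds 1 cell line, with no parent cells, non-malignant cells or blank medium beside it, so levels could not be set against a control. Every value therefore describes these PC3 EV preparations only, and RNA carried over from the medium was not measured.

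A miRNA guides the Argonaute protein to messenger RNAs that pair with its seed, the bases close to the 5′ end, and lowers the output of those mRNAs. A hairpin precursor is cut to a duplex, and usually 1 strand, the main arm, is kept while the other is degraded. miR-221 and miR-222 are known in many carcinomas, PCa lines among them, for lowering the cell cycle inhibitor p27, encoded by CDKN1B. miR-23, miR-27 and miR-24 are widely expressed and are known for targets in adipogenic and osteogenic differentiation, apoptosis and the cell cycle.

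The mature sequences are shown because the members fall into 4 seed groups, and because the a and b forms can hardly be told apart as reads. All 7 were found in RefSeq (GRCh38.p14), written 5′ to 3′ with the seed, bases 2 to 8, in capitals.
hsa-miR-221-3p: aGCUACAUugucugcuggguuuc
hsa-miR-222-3p: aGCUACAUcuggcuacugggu
hsa-miR-23a-3p: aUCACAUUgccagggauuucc
hsa-miR-23b-3p: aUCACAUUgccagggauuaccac
hsa-miR-27a-3p: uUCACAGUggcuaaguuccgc
hsa-miR-27b-3p: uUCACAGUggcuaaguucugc
hsa-miR-24-3p: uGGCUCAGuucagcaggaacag

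hsa-miR-221-3p and hsa-miR-222-3p shared their first 8 bases and differed at 10 of the 21 positions compared, so reads of either are readily assigned. hsa-miR-23a-3p and hsa-miR-23b-3p were identical over 18 bases and differed by the single substitution U19A, counted from 1 at the 5′ end with the a form first, and the b form was 2 bases longer. hsa-miR-27a-3p and hsa-miR-27b-3p likewise differed by C19U alone. A read that stops short of base 19 cannot separate either pair, and how the authors' counting placed such reads is not given in the sources used here. The split between a and b forms is therefore uncertain. Their sum does not rest on that base if each such read was counted once, which is also not given. The seeds of miR-23 and miR-27 also had their first 5 of 7 bases in common, UCACA. Of the other names in the table with a RefSeq sequence, hsa-miR-23c alone carried a seed of these groups, that of miR-23, and it had 0 reads in both libraries. hsa-miR-24-3p shared its seed with no other name. The 7 sequences were 21 to 23 bases long, so no length correction was made. How evenly the library preparation captured different sequences was not measured, so a fold between arms is a fold in reads.

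The hairpins lie at 3 places (GRCh38, GENCODE release 44). MIR222 (chrX:45747015-45747124) and MIR221 (chrX:45746157-45746266) are on the minus strand within 968 bases, in an intron of the lncRNA gene MIR222HG. MIR23A (chr19:13836587-13836659), MIR27A (chr19:13836440-13836517) and MIR24-2 (chr19:13836287-13836359) are on the minus strand within 373 bases, inside an exon of the lncRNA gene MIR23AHG. MIR23B (chr9:95085208-95085304), MIR27B (chr9:95085445-95085541) and MIR24-1 (chr9:95086021-95086088) are on the plus strand within 881 bases of AOPEP, an aminopeptidase gene. MIR23B and MIR27B are intronic in all 7 AOPEP transcripts that span them, and MIR24-1 overlaps an exon in 1 of 7. Both MIR24 hairpins give the same hsa-miR-24-3p, so its reads cannot be assigned to chromosome 19 or 9.

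The 2 columns of the small RNA table were named alike, so they are referred to as the first and second library, without a replicate number. The first held 154185 reads counted on miRNAs and the second 113185, and members took 2705 and 1138 of them. Levels are in CPM, reads per 1000000 reads counted on miRNAs. A read was worth 6.49 CPM in the first library, 8.84 in the second, and 3 reads, the limit that a count of 0 allows, were 19.5 and 26.5 CPM. Intervals are 95% Wilson intervals of a share, and with the limits above they cover counting error only, since amplified reads are not independent molecules. The libraries differed by far more than counting error (chi-square 21.7 per degree of freedom over 208 miRNAs), so each was described alone. The total RNA files were matched to replicates 1 and 2 through the sample descriptions, because the titles of both carry the label EX1. The descriptions give EX1 for replicate 1 and EX2 for replicate 2. In the total RNA, with 489170 and 475942 reads counted on genes, PC3 markers were as the line is known for: KRT8 (966 and 1088 reads), KRT18 (94 and 87), VIM (130 and 87) and CD44 (72 and 44) were present, while KLK3 had 0 reads. Among 9 miRNAs of red cells, leukocytes, liver and muscle, hsa-miR-122-5p of liver had 39 and 26 reads, hsa-miR-486-5p had 6 and 7, and each of the others had at most 1 read in a library.

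All 7 members were identified, with at least 1 read in both libraries, against 14.9% of all names in the table. All 7 also had at least 10 reads in both, against 5.56% of names. Together they took 1.75% (1.69 to 1.82%) and 1.01% (0.949 to 1.07%) of the miRNA reads of the libraries. Their summed level averaged 13799 CPM ± 5296 (SD, n = 2). The miR-23/27/24 arms gave 2090 and 836 of these reads (10471 CPM ± 4362, SD, n = 2), and the miR-221/miR-222 arms gave 615 and 302 (3328 CPM ± 934, SD, n = 2). miR-221/miR-222 thus made up 22.7% (21.2 to 24.4%) and 26.5% (24.1 to 29.2%) of the members' reads, shares whose intervals overlapped.

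hsa-miR-23a-3p was the highest member, with 1044 reads in the first and 389 in the second library, 6771 and 3437 CPM, or 5104 CPM ± 2358 (SD, n = 2). It ranked 20 and 21 among all miRNA names. hsa-miR-24-3p, the arm that both miR-23/27/24 loci supply, followed with 597 and 291 reads, 3872 and 2571 CPM (3222 CPM ± 920, SD, n = 2), and ranks 23 and 27. These were the most abundant miR-23/27/24 arms in both libraries, and hsa-miR-23a-3p exceeded hsa-miR-24-3p 1.75-fold (95% interval 1.58 to 1.93) in the first and 1.34-fold (1.15 to 1.56) in the second.

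hsa-miR-222-3p had 473 and 257 reads, 3068 and 2271 CPM (2669 CPM ± 564, SD, n = 2), at ranks 25 and 30. Its interval lay below that of hsa-miR-24-3p in the first library, but in the second library the intervals overlapped and the order of these neighbours was not resolved. hsa-miR-221-3p, from the same primary transcript, had 142 and 45 reads, 921 and 398 CPM (659 CPM ± 370, SD, n = 2), at ranks 52 and 69.

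The remaining miR-23/27/24 arms were low and close together. hsa-miR-27a-3p had 163 and 63 reads, 1057 and 557 CPM (807 CPM ± 354, SD, n = 2). hsa-miR-23b-3p had 143 and 46 reads, 927 and 406 CPM (667 CPM ± 368, SD, n = 2). hsa-miR-27b-3p had 143 and 47 reads, 927 and 415 CPM (671 CPM ± 362, SD, n = 2). The plot of member levels shows these arms and hsa-miR-221-3p as a lower group in both libraries, within which no pair of neighbours had separate intervals, while hsa-miR-222-3p stood clear above it in each library.

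**Figure D1:**
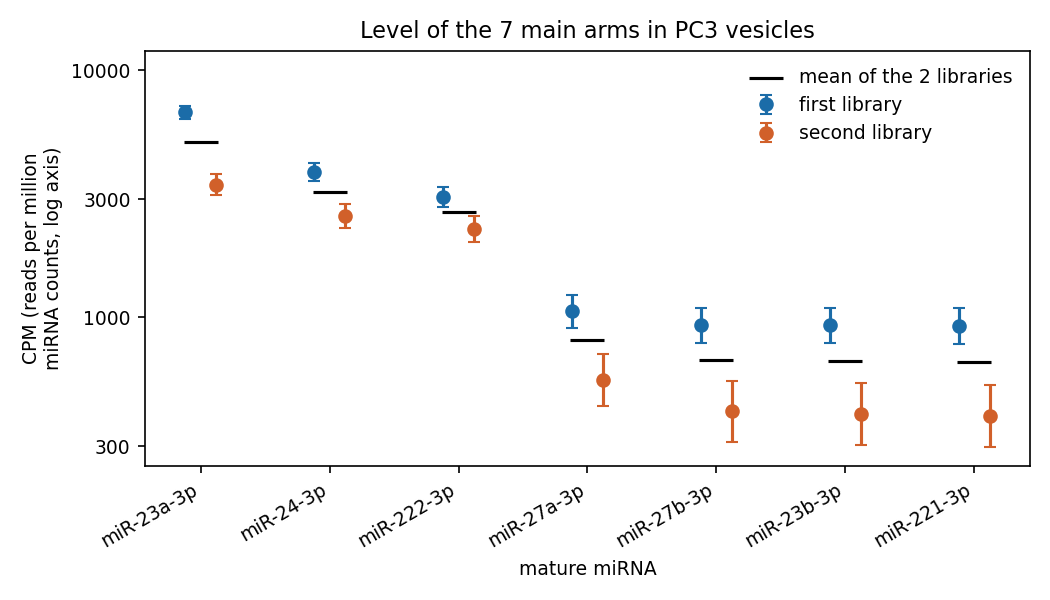
CPM of each main arm on a log axis, with the first and second small RNA library as points, their 95% Wilson intervals as bars (counting error only) and the mean of the 2 libraries as a black line. hsa-miR-23a-3p is highest at 6771 and 3437 CPM, 4 arms lie between 921 and 1057 CPM in the first library, with 398 to 557 CPM for the same arms in the second, and every arm is lower in the second library.

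Reads of arms cut from the same primary transcript were unequal at the X and chromosome 19 loci and even at the chromosome 9 locus. On the X chromosome, hsa-miR-222-3p exceeded hsa-miR-221-3p 3.33-fold (95% interval 2.76 to 4.02) and 5.71-fold (4.17 to 7.83) in the first and second library. hsa-miR-221-3p made up 23.1% (19.9 to 26.6%) and 14.9% (11.3 to 19.4%) of the pair, and these intervals did not overlap, so even this ratio, which no scaling of the libraries can change, differed between the libraries by more than counting error.

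On chromosome 19, hsa-miR-23a-3p exceeded hsa-miR-27a-3p 6.40-fold (5.43 to 7.55) and then 6.17-fold (4.74 to 8.05). On chromosome 9, hsa-miR-23b-3p and hsa-miR-27b-3p had 143 reads each in the first library (interval of the ratio 0.794 to 1.26), and their ratio was 0.979 (0.654 to 1.47) in the second. The map of the hairpins shows this contrast: the a forms were far apart in level and the b forms even, in each library. hsa-miR-23a-3p made up 88.0% (86.0 to 89.7%) and 89.4% (86.2 to 91.98%) of the reads of the miR-23 pair, whereas hsa-miR-27a-3p made up 53.3% (47.7 to 58.8%) and 57.3% (47.9 to 66.1%) of those of the miR-27 pair. Unlike the share of hsa-miR-221-3p, neither share separated the libraries. Because 1 base separates the forms of each pair, the part that read assignment plays in these splits was not tested.

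**Figure D2:**
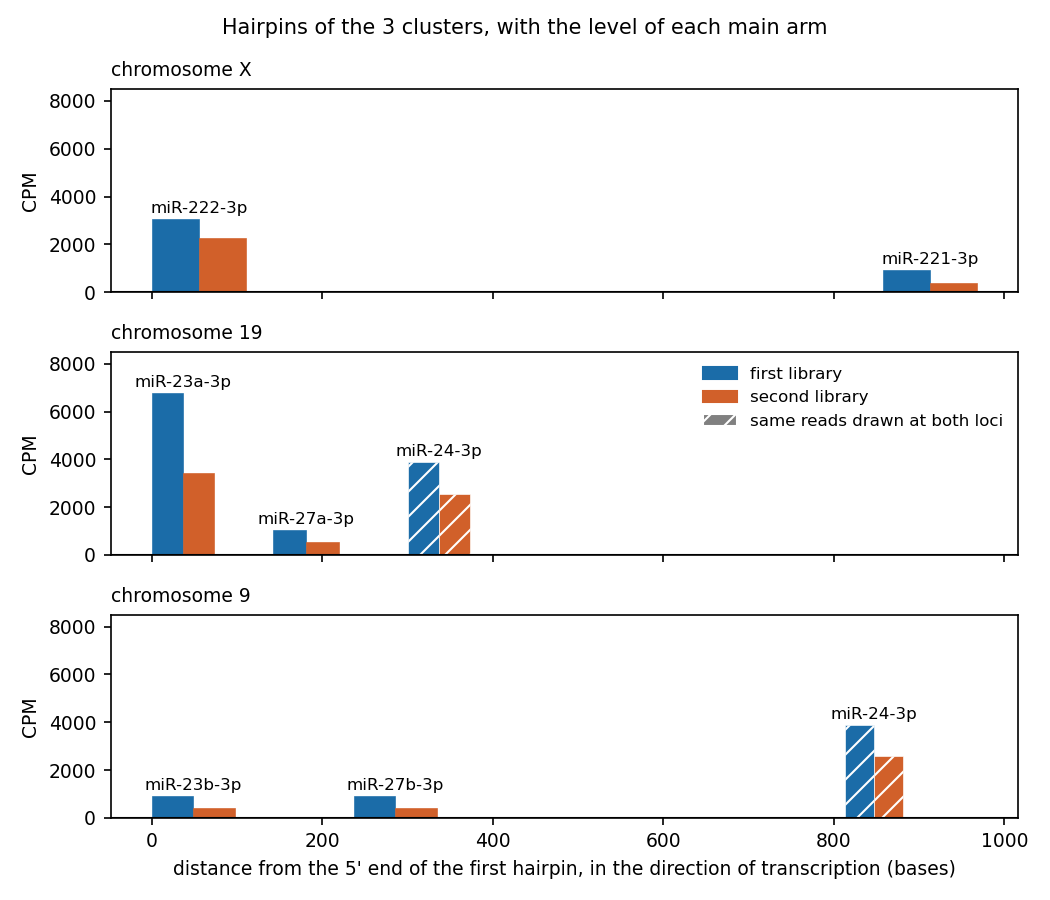
CPM of each main arm drawn at its hairpin, with distance in bases from the first hairpin of each cluster along the direction of transcription; bars start at 0, paired bars are the first and second library, and no error is drawn. hsa-miR-24-3p (3872 and 2571 CPM) is hatched and drawn at both miR-23/27/24 loci because the reads cannot be assigned to either.

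**Figure D3:**
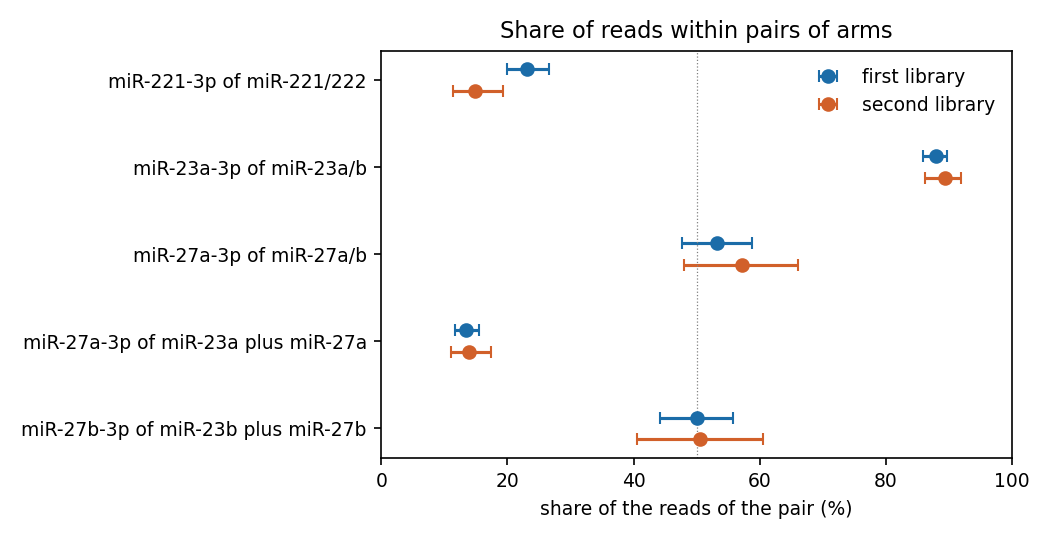
Share of the reads of a pair (%) taken by the named arm in the first and second library, with 95% Wilson intervals and a dotted line at equal shares. Of the 5 shares drawn, only that of hsa-miR-221-3p, 23.1% and 14.9%, has separate intervals in the 2 libraries, and the miR-27a/b and miR-23b/27b intervals include an equal split.

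Summed over the arms that come from 1 locus alone, minor arms included, chromosome 19 gave 1227 and 468 reads and chromosome 9 gave 287 and 93. This was 4.28-fold (3.76 to 4.86) and 5.03-fold (4.03 to 6.28) more for chromosome 19, and hsa-miR-23a-3p supplied most of it, so the uncertain split of the miR-23 pair carries over to this fold. By seed, the miR-23 pair was at 5771 CPM ± 2726, the miR-221/miR-222 pair at 3328 CPM ± 934, hsa-miR-24-3p at 3222 CPM ± 920 and the miR-27 pair at 1478 CPM ± 716 (SD, n = 2 each). The means of miR-221/miR-222 and miR-24 lay closer than the SD of either.

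The minor arms were scarce. Of the 8 listed, 2 had at least 1 read in both libraries: hsa-miR-221-5p with 24 and 7 reads, and hsa-miR-24-2-5p with 20 and 13. The main arm held 85.5% (79.4 to 90.1%) and 86.5% (74.7 to 93.3%) of the reads of the miR-221 hairpin, and 96.8% and 95.7% of those named miR-24. hsa-miR-27a-5p had 0 and 3 reads, hsa-miR-27b-5p had 1 and 0, and hsa-miR-222-5p, hsa-miR-23a-5p, hsa-miR-23b-5p and hsa-miR-24-1-5p had 0 in both.

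The miR-24 minor arms are the only products that tell the MIR24 loci apart, and their sequences are shown for that reason, from RefSeq with the seed in capitals.
hsa-miR-24-1-5p: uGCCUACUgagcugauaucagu
hsa-miR-24-2-5p: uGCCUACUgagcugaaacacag

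They were identical over 15 bases and differed at 6 of 22. hsa-miR-24-2-5p, from chromosome 19, was at 130 and 115 CPM, while the 0 reads of hsa-miR-24-1-5p, from chromosome 9, allow up to 19.5 and 26.5 CPM. This locates the minor arm reads only, and the source of hsa-miR-24-3p was not measured.

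Every member was lower in the second library than in the first. The intervals of the ratios below cover counting error only, which the spread between these libraries exceeds. hsa-miR-221-3p had the lowest ratio of CPM, second over first, at 0.432 (0.309 to 0.604), with hsa-miR-23b-3p at 0.438 (0.314 to 0.611) and hsa-miR-27b-3p at 0.448 (0.322 to 0.622) beside it. hsa-miR-23a-3p was at 0.508 (0.452 to 0.570) and hsa-miR-27a-3p at 0.527 (0.394 to 0.704). hsa-miR-24-3p, at 0.664 (0.577 to 0.764), and hsa-miR-222-3p, at 0.740 (0.636 to 0.861), were closest to equal. All 7 of 7 were thus lower in the second library, against 71.5% of the 144 miRNAs with 10 or more reads in each. All 7 were lower with separate Wilson intervals, against 28.5% of the 144. Intervals separate more readily at higher read counts, and the 144 were not matched to the members for level. The part that read count plays in this contrast was not tested.

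The members' median ratio was 0.508 and that of all 144 miRNAs was 0.812, with single ratios from 0.253 to 2.72. All 7 lay below the overall median. Counted from the lowest ratio, hsa-miR-221-3p stood at position 6 of 144, hsa-miR-23b-3p at 7, hsa-miR-27b-3p at 10, hsa-miR-23a-3p at 16, hsa-miR-27a-3p at 19, hsa-miR-24-3p at 42 and hsa-miR-222-3p at 58. The plot of the libraries against each other shows 5 members well under the median line and these last 2 near it. Both libraries are of the same condition, so the gap is one between replicates. Fewer copies in each vesicle, fewer vesicles that carry a miRNA and differences in library preparation cannot be told apart here.

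**Figure D4:**
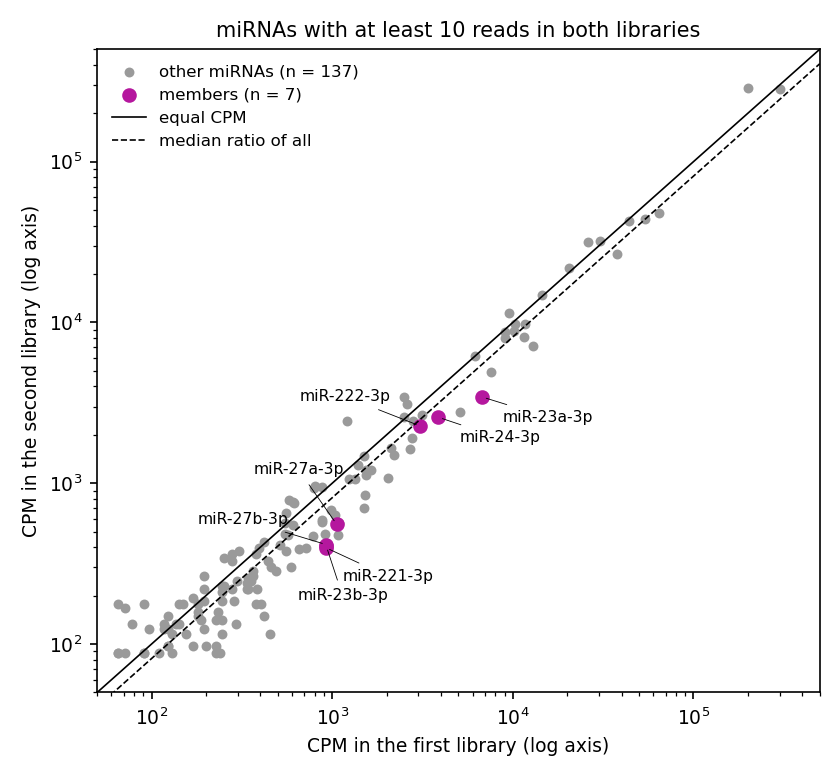
CPM in the first against the second small RNA library on log axes for 144 miRNAs with 10 or more reads in each, members in purple, with lines for equal CPM and for the median ratio of 0.812. All 7 members lie below the median line, hsa-miR-222-3p nearest to it with a ratio of 0.740.

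The gap depended in part on 2 names with most of the reads. miR-3182 had 46734 and 32104 reads and miR-4448 had 31086 and 32691, and a share of reads falls in all other miRNAs when such a name takes more. With these 2 left out of the totals, 55.6% of the 144 miRNAs were lower in the second library, and with TMM scaling, a trimmed mean that is less moved by a few names, 59.0% were. The median log2 ratio of all 144 moved from -0.30 to -0.09 and -0.13. All 7 members remained lower, at ratios from 0.500 to 0.857 without the 2 names and from 0.486 to 0.834 with TMM. Separate intervals held for 6 of 7 under each, hsa-miR-222-3p being the exception, against 15.3% and 18.1% of the 144, again not matched for level.

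Other miRNA clusters did not all move this way. The main arms of the miR-17/92 cluster, which is known for promoting proliferation, were summed by name, and the locus that gave their reads was not measured. They had 2374 and 1147 reads over 6 arms (12766 CPM ± 3722, SD, n = 2), a sum close to that of the members. The ratio of this sum was 0.658 (0.614 to 0.706). hsa-miR-92a-3p made up most of the sum, with 1782 and 920 reads and a ratio of 0.703. hsa-miR-17-5p (0.464), hsa-miR-19a-3p (0.474, from 23 and 8 reads) and hsa-miR-20a-5p (0.529) were near the members' median of 0.508. hsa-miR-19b-3p (0.973, from 21 and 15 reads) and hsa-miR-18a-5p (2.04, from 2 and 3 reads) were not. The miR-183/miR-96/miR-182 cluster, known from sensory organs and raised in many carcinomas, had 3198 and 2387 reads over 3 arms (20915 CPM ± 246, SD, n = 2) and a ratio of 1.02 (0.965 to 1.07). The ratio of the 7 members was 0.573 (0.535 to 0.614), and its interval lay apart from that of miR-183/miR-96/miR-182 but touched that of miR-17/92 at its upper end.

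The miRNAs most like each member over the 2 libraries, by distance in log2 CPM among those with at least 10 reads in both, were mostly other broadly expressed miRNAs. hsa-miR-26b-5p, with 140 and 55 reads, was nearest to hsa-miR-221-3p, hsa-miR-23b-3p and hsa-miR-27b-3p. hsa-miR-30c-5p, with 169 and 64 reads, lay 0.0569 log2 units from hsa-miR-27a-3p, the closest match of all, and hsa-miR-423-5p, with 432 and 277 reads, lay 0.170 from hsa-miR-222-3p. hsa-miR-99b-5p (485 and 302 reads) was nearest to hsa-miR-24-3p. hsa-miR-23a-3p had no close match, the nearest being hsa-miR-26a-5p (791 and 316 reads) at 0.500. With 2 libraries, a likeness of this kind describes level and gap alone.

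In the total RNA libraries no hairpin or host gene with a row had reads in both replicates. Counts on a host gene need not measure its hairpins, which are intronic at the X locus and mostly so on chromosome 9. How reads on both a hairpin gene and its host were counted is not given in the sources used here. Of the 8 hairpin genes 6 had a row, and none of these had a read. The host MIR222HG had 10 reads in replicate 1 and 0 in replicate 2, AOPEP had 0 and 10, and MIR23AHG had 0 in both, where 0 reads allow up to 6.13 and 6.30 CPM of gene reads. Host transcripts were therefore not seen in both replicates at any of the 3 loci. Arms named for each locus had reads in both small RNA libraries. For chromosome 9 these were the b forms, whose split from the a forms is uncertain.

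Known target mRNAs of the members were then counted in the same EVs, from a list of 34 genes taken from general knowledge. Of these, 17 had at least 1 read in both total RNA libraries, 50%, against 21.9% of 19629 protein-coding genes, and 13 had no read. The list holds well-studied cancer genes, its transcripts were not matched to others for length or level, and the gap was not tested. Strand and copy matter as well, since the strand setting of the counting is not given and genes such as KRT8, KRT18, FOXO3 and PHB have close copies elsewhere in the genome.

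Of 13 listed targets of miR-221/miR-222, 6 had a read in both. CDKN1B, the p27 gene, had 1 read in replicate 1 and 2 in replicate 2, both under 3 reads, the limit that a count of 0 allows. FOXO3, a stress-response transcription factor, had 69 and 24 reads, and BBC3, which encodes the apoptosis inducer PUMA, had 42 and 67. DDIT4, an inhibitor of mTOR signalling, had 13 and 18, the transcriptional repressor gene TRPS1 had 8 and 24, and ICAM1, a cell adhesion gene, had 22 and 4. KIT, TIMP3, CDKN1C, BMF and ESR1 had 0 in both.

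Among the listed targets of miR-23, RUNX2, the gene of the master transcription factor of osteoblasts, had 0 in both. Of 8 listed targets of miR-27, 3 had reads in both: PPARG, the adipocyte nuclear receptor gene, with 8 and 18, its partner gene RXRA with 16 and 6, and the prohibitin gene PHB with 24 and 10.

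miR-24 was the group with most listed targets seen, 7 of 8. MYC, the growth-promoting transcription factor gene, had 526 and 349 reads, the highest read count on the list, uncorrected for transcript length. H2AX, a histone gene of the DNA damage response, had 42 and 61, the cell cycle inhibitor gene CDKN2A had 42 and 26, and the apoptosis gene BCL2L11 had 10 and 14. CDK4, a cell cycle kinase gene, had 23 and 6, and the protease gene FURIN had 6 and 6, while AURKB had 2 and 1. Reads of a target and of its miRNA in the same EVs say nothing of repression, because no condition in which the miRNA was changed was sequenced.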

How the data were processed

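Small RNA and total RNA of PC3 EVs were sequenced in 2 libraries each. Cutadapt was used for trimming, and the authors deposited raw small RNA counts per mature miRNA from SHRiMP. For the total RNA, the authors deposited raw counts per Ensembl gene, and the submitters' processing notes name HTSeq and GRCh38. Versions, mismatches allowed, strand setting and the handling of reads that match several miRNAs are not given in the sources used here.

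Counts were divided by the library total and scaled to 1000000 (CPM). Shares carry 95% Wilson intervals, and ratios carry 95% log-normal counting intervals. With 1 condition per assay no test applied and no p-value is given. Separate intervals describe these libraries, and the SD over 2 replicates is the only measure of their spread. The members and gene lists were chosen with earlier results of these data known. Named are the 7 members, their 8 minor arms, names that share a seed, the nearest non-member of each, the main arms of 2 other clusters, hairpin and host genes, and listed targets with at least 3 reads in both total RNA libraries, plus CDKN1B and RUNX2. Some genes that this rule or the marker list covers are not reported here. Listed targets named at 0 reads, miRNAs and PC3 genes used as markers, the 2 most abundant miRNA names and AURKB were named outside that rule, after their values were seen.

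Sequences and coordinates came from RefSeq (GRCh38.p14) and GENCODE release 44; 2281 of 2588 names had a sequence. Alternatives were TMM scaling, totals without the 2 most abundant names, other read minimums and each library alone. The interval rule and the scaling were tested on simulated data. For TMM the simulated counts held counting error only, whereas the spread between these libraries was far larger. TMM factors came from edgeR 4.0.16 in R 4.3.3, and the rest from Python 3.11.15 with numpy 2.4.6, pandas 2.3.3, scipy 1.17.1 and matplotlib 3.10.9.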

Additional observations from a re-analysis of the deposited data

How the results depend on the processing

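Without the 2 most abundant names in the totals, mean levels rose to 7147 CPM for miR-221/miR-222, 22322 CPM for miR-23/27/24 and 29469.6 CPM for the 7 arms, since fewer reads were left to share. The count of minor arms was 1 with at least 10 reads required in both libraries and 4 with a read in either. It was 3 in each library alone. TMM scaling moved the mean levels by less than the SD, to 3295 CPM, 10305 CPM and 13600.1 CPM for the same sums, and all 7 members kept a ratio under 1 under both scalings. The 7 members were identified at each read minimum tried (1, 3 and 10). The listed targets seen ranged from 15 to 21 over the settings, against 17. With 2 libraries, a library alone always lies within the SD of their mean, so leaving one out says nothing of how stable a level or share is: the sum of the 7 arms was 17544 CPM in one and 10054 CPM in the other. No paired analysis was possible because only 1 condition was sequenced per assay. Depth limits the b forms, hsa-miR-221-3p and the minor arms most.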
